A study of Mus musculus with 9 samples.

Results

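B2m, Tap1, Tap2, Tapbp, Psmb8, Psmb9, Nlrc5 and Irf1 make up a group of 8 genes for MHC class I antigen presentation and its transcriptional regulators, measured here in mouse pluripotent stem cells. Each gene was taken by its annotated symbol from probe sets that carried that symbol alone. Where there were several, the brightest on average stood for the gene. All 8 were measured, of 19938 genes that could be tested. The rule itself uses annotation and mean brightness, but the 8 genes were picked with earlier results of these data known.

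Total RNA was profiled on 9 single-colour microarrays, in 3 groups of 3. Epiblast stem cells (EpiSCs), which resemble the primed epiblast around implantation, were kept either in CHIR99021, an inhibitor of the kinase GSK3, together with XAV939, a tankyrase inhibitor (CHIR/XAV), or in the growth factors FGF2 and activin. Embryonic stem cells (ESCs), which resemble the naive epiblast of the blastocyst, were kept in 2i, that is CHIR99021 with the MEK inhibitor PD0325901. The listed doses were 3 µM CHIR99021, 2 µM XAV939, 1 µM PD0325901 and 10 ng/ml each of FGF2 and activin, with 10% serum. The same list is given for all 9 samples, so the additives of each group were read from its name. Whether every group had serum is therefore not certain. Both EpiSC groups are labelled as strain CD1 and the ESCs as strain 129. In the comparisons with ESCs, strain, cell type and medium therefore cannot be told apart, and MHC genes are known to be polymorphic between mouse strains. Only the comparison between the EpiSC cultures is within 1 labelled strain. The labels do not state whether the 3 arrays of a culture are independent cultures. The p-values then cover array-to-array spread, and that spread may be technical.

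MHC class I molecules show peptides from inside the cell to CD8 T cells and natural killer cells. Proteasomes cut proteins into peptides, the TAP transporter moves the peptides into the endoplasmic reticulum, tapasin holds an empty class I heavy chain at the transporter, and beta-2 microglobulin is the light chain without which the complex is unstable. Interferon raises the whole pathway in most somatic cells through IRF1 and NLRC5, whereas early embryonic cells are known for low class I at the surface and a weak interferon response.

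The upstream sequences of 3 of these loci are shown: those of B2m and Irf1, which had 2 of the largest changes over ESCs among the 8 genes, and the stretch shared by Tap1 and Psmb9, whose values came apart in FGF2/activin. They are RefSeq sequence of build GRCm38.p6, plus strand, 5′ to 3′, ending or starting at the base next to a transcript start. Capitals mark letters that match an interferon-stimulated response element (ISRE, GAAA, 2 bases of any kind, GAAA), a gamma-activated site (GAS, TTCNNNGAA), a kappaB element (GGGA, 2 bases of any kind, TTCC), the core of the cyclic AMP response element (CRE, TGACG) or a CCAAT box (CCAAT), searched on both strands. Promoter windows were given for 6 of the 8 genes. Those of Tap2 and Nlrc5 were not analysed here.
B2m (chr2:122147437-122147686): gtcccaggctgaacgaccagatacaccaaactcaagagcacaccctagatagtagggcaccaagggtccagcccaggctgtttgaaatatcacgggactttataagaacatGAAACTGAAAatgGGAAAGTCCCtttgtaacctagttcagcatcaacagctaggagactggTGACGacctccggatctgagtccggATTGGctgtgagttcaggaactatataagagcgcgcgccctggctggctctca
Irf1 (chr11:53769764-53770013): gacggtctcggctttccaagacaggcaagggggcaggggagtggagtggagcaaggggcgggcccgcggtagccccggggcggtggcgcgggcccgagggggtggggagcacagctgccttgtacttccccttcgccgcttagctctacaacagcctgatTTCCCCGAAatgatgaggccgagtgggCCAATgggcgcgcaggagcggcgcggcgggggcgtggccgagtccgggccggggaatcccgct
Psmb9 to Tap1 (chr17:34187331-34187555): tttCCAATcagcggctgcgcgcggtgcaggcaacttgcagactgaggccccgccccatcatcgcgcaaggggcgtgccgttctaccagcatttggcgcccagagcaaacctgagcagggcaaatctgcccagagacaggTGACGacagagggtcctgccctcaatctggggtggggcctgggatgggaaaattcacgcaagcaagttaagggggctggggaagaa

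The B2m window held an ISRE, GAAACTGAAA, followed 3 bases later by a kappaB match, GGAAAGTCCC, which is on the minus strand, and then a CRE core and a CCAAT box. The Irf1 window held a GAS, TTCCCCGAA, the kind of site through which interferon gamma is known to act, and a CCAAT box. A second annotated Irf1 start had no match. Of the windows not shown, that of Psmb8 held a GAS, TTCCCAGAA, 97 bases before the start, and that of Tapbp held 2 CCAAT boxes. Tap1 and Psmb9 start on opposite strands, 225 bases apart, with 1 CRE core and 1 CCAAT box, and no ISRE, GAS or kappaB match, in the stretch between them. Of the 32851 promoter windows of 250 bases, 2.98% held the ISRE letters, 7.02% the GAS, 1.21% the kappaB, 17.8% the CRE core and 33.8% the CCAAT box. The matches describe letters only and show no binding. Only these exact letters were searched, so a site that departs from them, such as another form of the kappaB element, is not marked. The lack of a match is therefore not the lack of a site, in Irf1 or between Psmb9 and Tap1.

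The arrays fell by group: values correlated at 0.996 to 0.998 over the 19938 genes within groups and at 0.933 to 0.975 between them. The labels were checked against marker genes. All 6 naive markers were lower in both EpiSC cultures than in ESCs (median log2 change -4.15 in CHIR/XAV and -4.05 in FGF2/activin), and all 5 primed markers were higher in both. All levels below are log2 values as deposited. Detection calls were not used, so how much of a dim level is background is unknown, and a change from such a level is then understated. In bulk RNA, fewer cells expressing a gene and less RNA per cell cannot be told apart.

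Most of the class I pathway was higher in EpiSCs than in 2i ESCs. In CHIR/XAV EpiSCs 7 of the 8 genes were higher than in ESCs and none lower, all 7 by at least 2-fold, with a median log2 change of 1.52 over the 8 against -0.03 over all genes. Over all genes, 24.7% were called higher and 22.1% lower in that comparison, and 5.03% higher by at least 2-fold (limma, adjusted p under 0.05). The arrays of the 2 groups did not overlap for 7 of the 8 genes, as they did not for 53.2% of all genes. In FGF2/activin EpiSCs 7 were higher and 1, Nlrc5, lower, 4 of the 7 by at least 2-fold, with a median of 1.34 against -0.08 over all genes. There 27.8% of all genes were called higher and 33.5% lower, and 6.66% were at least 2-fold higher. The balance of calls over all genes depended on the scaling: 5537 were higher and 6681 lower as deposited, whereas median centring gave 6143 and 5006 and quantile normalization 5309 and 5057, while the 8 genes kept 7 higher and 1 lower. The arrays did not overlap for all 8 genes, against 66.6% of all genes. Both comparisons use the same 3 ESC arrays, so they are not independent of each other.

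The EpiSC cultures were called different in all 8 genes, in opposite directions, although the calls of Tap1, Psmb8 and Nlrc5 were lost when certain single arrays were left out. That of Nlrc5 was also lost with the mean of its probe sets, and that of Tap1 after quantile normalization. Tap2, Psmb8, Psmb9 and Nlrc5 were higher in CHIR/XAV, and B2m, Tap1, Tapbp and Irf1 were higher in FGF2/activin. Of all genes, 20.5% were called higher and 21.1% lower in CHIR/XAV, and the arrays did not overlap for 52.0%, against 8 of these 8, so a call alone was common. Only Psmb9 passed 2-fold, as 1.62% of all genes did in that direction.

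**Figure D1:**
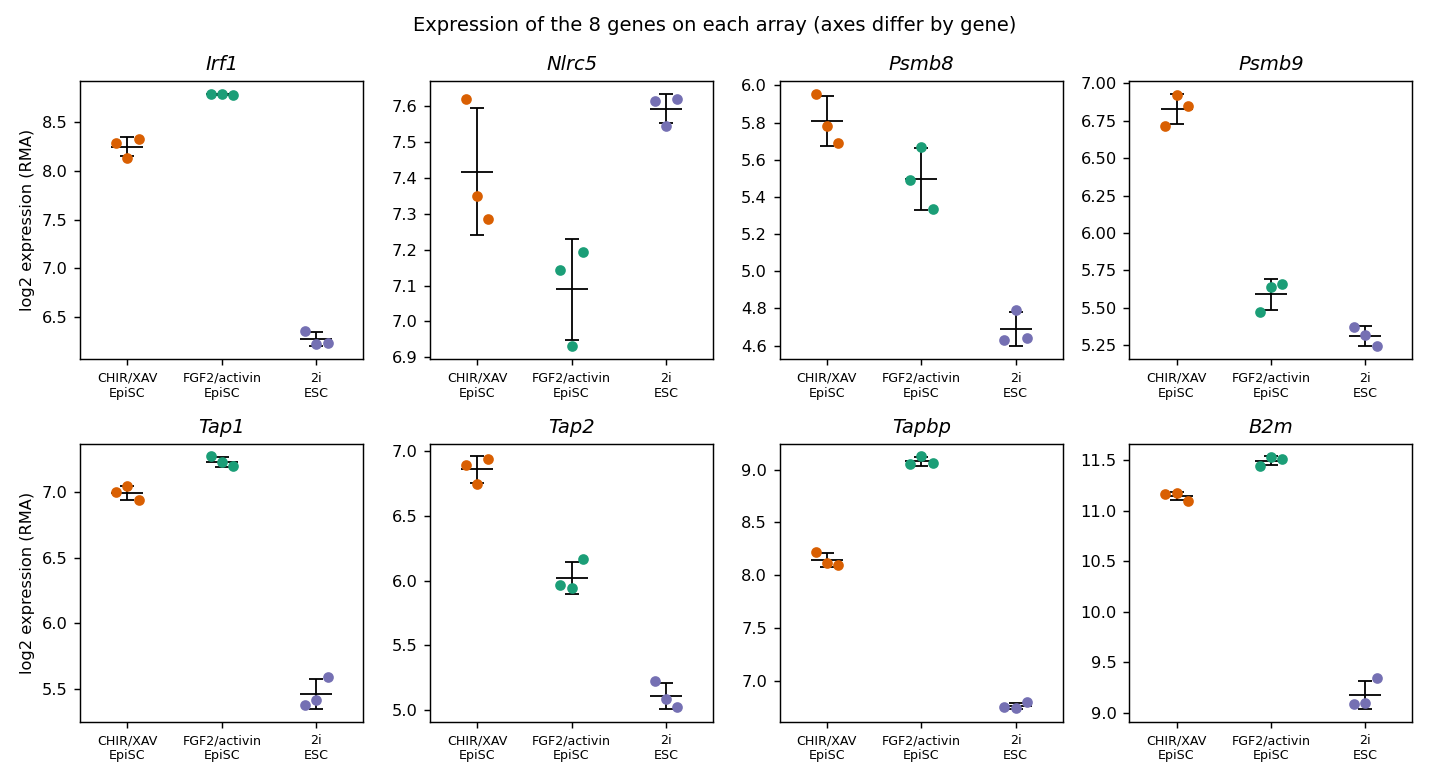
Deposited log2 level (vertical axis) of each of the 8 genes on every array, 1 panel a gene, with CHIR/XAV EpiSCs, FGF2/activin EpiSCs and 2i ESCs from left to right. Points are arrays, the wide line is the group mean and the error bar its SD; vertical axes differ between panels. In 7 panels the 3 ESC points lie below all 6 EpiSC points; the Nlrc5 panel is the exception.

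Irf1, the interferon-induced transcription factor that binds ISREs in class I pathway genes, had values of 8.29, 8.14 and 8.33 in CHIR/XAV EpiSCs and 8.80, 8.79 and 8.79 in FGF2/activin EpiSCs, against 6.35, 6.22 and 6.23 in ESCs. The 3 groups did not overlap, and FGF2/activin was the highest. Over ESCs, the level was 3.95-fold higher in CHIR/XAV (log2 change 1.98 ± 0.07 SE, limma adjusted p = 1.45e-11) and 5.75-fold higher in FGF2/activin (2.52, adjusted p = 8.04e-13). These changes lay at the 98.8 and 99.1 percentiles of all genes. Between the EpiSC cultures the log2 difference, CHIR/XAV minus FGF2/activin, was -0.54 (95% interval -0.69 to -0.39, limma adjusted p = 2.51e-05). A second Irf1 probe set, with means of 5.09, 5.27 and 4.90 in CHIR/XAV, FGF2/activin and ESCs, was higher than in ESCs by 0.19 and 0.37 in CHIR/XAV and FGF2/activin.

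Nlrc5, the transactivator that sits on class I promoters, was not higher in either EpiSC culture than in ESCs. Its values were 7.62, 7.35 and 7.29 in CHIR/XAV EpiSCs and 7.14, 6.93 and 7.19 in FGF2/activin EpiSCs, against 7.61, 7.55 and 7.62 in ESCs. The 3 FGF2/activin arrays were the lowest, and the first CHIR/XAV array reached the ESC level. Nlrc5 was 1.42-fold lower in FGF2/activin than in ESCs (log2 change -0.50, interval -0.70 to -0.30, limma adjusted p = 0.000363). In CHIR/XAV the difference from ESCs was -0.18 (interval -0.38 to 0.02, adjusted p = 0.142) and was not called. Without the first CHIR/XAV array it became -0.28 and was called (limma adjusted p = 0.0189). CHIR/XAV stood 0.33 above FGF2/activin (adjusted p = 0.0116), a call lost without the first CHIR/XAV array (adjusted p = 0.0567) or the second FGF2/activin array (0.0632).

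Nlrc5 had 19 probe sets of its own, and the one used had a mean of 7.37 over the 9 arrays while the other 18 had means of 4.18 to 6.06. Against ESCs, 16 of the 19 were lower in FGF2/activin, 7 of them called and none called higher (median -0.17, range -0.51 to 0.16). Of all genes, 33.5% were called lower and 27.8% higher there, with a median of -0.08, so lower calls were common. In CHIR/XAV 15 were lower, 5 called, and 1 was called higher, with means of 5.19 and 4.89 in CHIR/XAV and ESCs (median over the 19 -0.14). Of all genes, 22.1% were called lower and 24.7% higher in CHIR/XAV, with a median of -0.03. In CHIR/XAV against FGF2/activin 12 of the 19 were higher, 2 of them called and 0 called lower (median 0.05). The called ones were the probe set used and the one also called higher over ESCs, which stood 0.30 above FGF2/activin (limma adjusted p = 0.00251). Of all genes, 20.5% were called higher and 21.1% lower in that comparison. With the mean of all 19 in place of the brightest, the EpiSC difference was 0.05 and was not called (limma adjusted p = 0.578). Over the settings that give 1 value per gene, the change over ESCs ran from -0.28 to -0.11 in CHIR/XAV and from -0.62 to -0.17 in FGF2/activin.

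**Figure D2:**
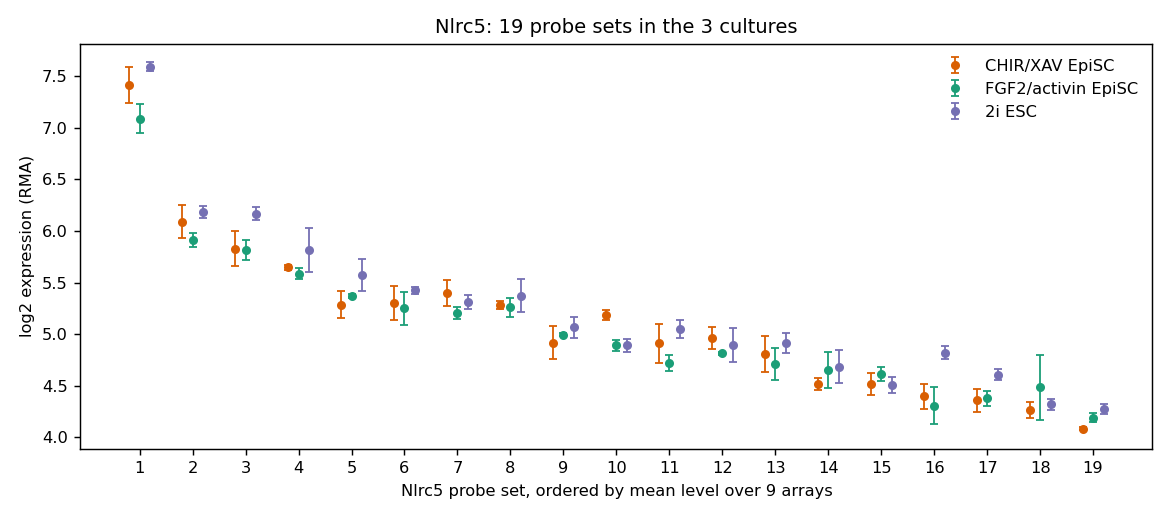
Deposited log2 level (vertical axis) of each of the 19 Nlrc5 probe sets, ordered along the horizontal axis by their mean over the 9 arrays, in CHIR/XAV EpiSCs, FGF2/activin EpiSCs and 2i ESCs; points are means and error bars the SD of 3 arrays. The first probe set is the one used, with a mean of 7.37, and in 16 of the 19 the FGF2/activin point lies below the ESC point.

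Psmb8 and Psmb9 encode catalytic subunits that replace standard ones in the immunoproteasome, which cuts peptides better suited to class I. Psmb9 had values of 6.72, 6.92 and 6.85 in CHIR/XAV EpiSCs and 5.47, 5.64 and 5.66 in FGF2/activin EpiSCs, against 5.37, 5.32 and 5.24 in ESCs. CHIR/XAV stood clear of the other cultures, while the FGF2/activin arrays lay just above the ESC arrays without overlap. Psmb9 was 2.86-fold higher in CHIR/XAV than in ESCs (log2 change 1.52, limma adjusted p = 7.31e-10) and 1.21-fold higher in FGF2/activin (0.28, adjusted p = 0.00647). CHIR/XAV was 2.36-fold above FGF2/activin (1.24, interval 1.07 to 1.40, limma adjusted p = 1.56e-08), at the 99.0 percentile of all genes.

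Psmb8 had values of 5.96, 5.78 and 5.69 in CHIR/XAV EpiSCs and 5.49, 5.67 and 5.33 in FGF2/activin EpiSCs, against 4.63, 4.79 and 4.64 in ESCs. Every EpiSC array was above every ESC array, and the EpiSC cultures lay next to each other, without overlap. Psmb8 was 2.17-fold higher in CHIR/XAV than in ESCs (log2 change 1.12, limma adjusted p = 1.76e-07) and 1.75-fold higher in FGF2/activin (0.81, adjusted p = 4.56e-06). The EpiSC difference of 0.31 (interval 0.11 to 0.51, limma adjusted p = 0.0164) was no longer called without the first CHIR/XAV array (adjusted p = 0.0788) or the third FGF2/activin array (0.0755).

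Psmb10, the remaining catalytic subunit of the immunoproteasome, was higher in both EpiSC cultures than in ESCs, by 1.72 and 1.79 in CHIR/XAV and FGF2/activin. Its difference between the EpiSC cultures was -0.07 (interval -0.30 to 0.17) and was not called. Of the standard subunits that these 3 replace, Psmb5 changed by 0.05 and 0.03 and Psmb6 by -0.01 and 0.04 in CHIR/XAV and FGF2/activin, none of them called, and Psmb7 by 0.18, not called, and 0.30, called. Of 14 subunits of the standard core particle, 3 were higher and 1 lower in CHIR/XAV, and 4 higher and 2 lower in FGF2/activin, with medians of 0.13 and 0.08. Median centring made these splits 5 and 1 in CHIR/XAV and 7 and 1 in FGF2/activin, and quantile normalization made them 2 and 1, and 3 and 2. None of the 14 reached 2-fold in either culture. As deposited, 24.7% of all genes were called higher and 22.1% lower in CHIR/XAV, and 27.8% and 33.5% in FGF2/activin.

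Tap1 and Tap2 form the peptide transporter as a heterodimer. Tap1 had values of 7.0, 7.04 and 6.93 in CHIR/XAV EpiSCs and 7.27, 7.23 and 7.19 in FGF2/activin EpiSCs, against 5.38, 5.42 and 5.59 in ESCs. Both EpiSC cultures were well above ESCs, with FGF2/activin the higher. Tap1 was 2.88-fold higher in CHIR/XAV (log2 change 1.53, limma adjusted p = 3.37e-10) and 3.40-fold higher in FGF2/activin (1.76, adjusted p = 5.07e-11). The EpiSC difference was -0.24 (interval -0.39 to -0.08, limma adjusted p = 0.0163). It was not called after quantile normalization (-0.16, adjusted p = 0.103), without the third CHIR/XAV array (0.0532) or without the first FGF2/activin array (0.0631).

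Tap2 ran the other way between the EpiSC cultures. It had values of 6.90, 6.75 and 6.94 in CHIR/XAV EpiSCs and 5.96, 5.94 and 6.16 in FGF2/activin EpiSCs, against 5.22, 5.08 and 5.02 in ESCs. The groups did not overlap, with CHIR/XAV highest and ESCs lowest. Tap2 was 3.37-fold higher in CHIR/XAV than in ESCs (log2 change 1.75, limma adjusted p = 3.84e-10) and 1.88-fold higher in FGF2/activin (0.91, adjusted p = 3.68e-07). CHIR/XAV was 1.79-fold above FGF2/activin (0.84, interval 0.66 to 1.02, limma adjusted p = 1.98e-06).

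Tap1 and Psmb9, which face each other across the 225 bases printed above, moved by like amounts over ESCs in CHIR/XAV, 1.53 and 1.52. In FGF2/activin their changes were 1.76 and 0.28, with intervals of 1.61 to 1.92 and 0.11 to 0.44. A test between genes was not made. Psmb8 and Tap2, which follow on the same stretch of chromosome 17, were also higher in CHIR/XAV than in FGF2/activin, as Psmb9 was, so of these 4 adjacent genes Tap1 alone was lower in CHIR/XAV than in FGF2/activin.

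Tapbp, which encodes tapasin, had values of 8.22, 8.12 and 8.10 in CHIR/XAV EpiSCs and 9.05, 9.13 and 9.06 in FGF2/activin EpiSCs, against 6.75, 6.74 and 6.80 in ESCs. The groups were widely apart, with FGF2/activin highest. Tapbp was 2.61-fold higher in CHIR/XAV than in ESCs (log2 change 1.38, limma adjusted p = 2.65e-10) and 4.98-fold higher in FGF2/activin (2.32, adjusted p = 7.18e-13). The EpiSC difference, -0.93 (interval -1.07 to -0.80, limma adjusted p = 4.11e-08), was the largest fall in CHIR/XAV among the 8 genes and lay at the 2.96 percentile of all genes.

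B2m, the gene of beta-2 microglobulin, had values of 11.16, 11.18 and 11.10 in CHIR/XAV EpiSCs and 11.44, 11.53 and 11.51 in FGF2/activin EpiSCs, against 9.09, 9.10 and 9.34 in ESCs. No arrays of different groups overlapped, and the step between EpiSC cultures was small beside the step over ESCs. B2m was 3.92-fold higher in CHIR/XAV than in ESCs (log2 change 1.97, limma adjusted p = 3.61e-11) and 4.99-fold higher in FGF2/activin (2.32, adjusted p = 4.58e-12), at the 98.8 and 98.7 percentiles. The EpiSC difference was -0.35 (interval -0.51 to -0.18, limma adjusted p = 0.00212).

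**Figure D3:**
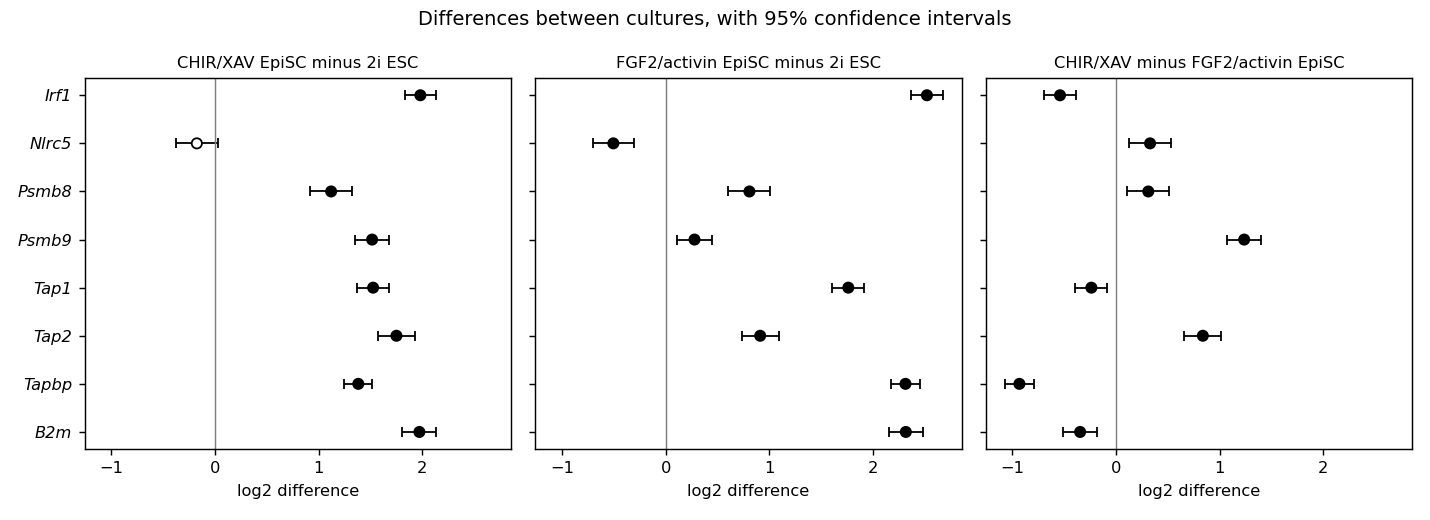
Log2 difference of the 8 genes in the 3 comparisons (horizontal axis, the same in each panel), as the fitted value with its 95% interval; filled points were called, the open point was not, and the grey line marks 0. In the panel of CHIR/XAV minus FGF2/activin EpiSCs, Psmb9 and Tap2 lie farthest to the right and Tapbp and Irf1 farthest to the left.

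The order of the cultures thus took 4 forms. FGF2/activin was highest, CHIR/XAV next and ESCs lowest for B2m, Tap1, Tapbp and Irf1. For Tap2 and Psmb8 the order was CHIR/XAV, FGF2/activin, ESCs. Psmb9 had that order too, with FGF2/activin close to ESCs. For Nlrc5 ESCs and CHIR/XAV, which were not called apart, lay above FGF2/activin, though the step from CHIR/XAV to FGF2/activin was not called with the mean of probe sets (0.05) or without either of 2 single arrays. Where 2 neighbours in an order were called apart, the smallest steps were those of Tap1 (0.24) and Psmb9 (0.28 over ESCs).

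Other genes of the class I pathway moved with these 8. Of 20 measured on the list of 30, 16 were higher and 1 lower in CHIR/XAV than in ESCs (median 0.50), and 14 were higher and 2 lower in FGF2/activin (median 0.32). In each culture 6 were at least 2-fold higher. Of all genes, 24.7% were called higher and 22.1% lower in CHIR/XAV, and 5.03% were at least 2-fold higher. In FGF2/activin these shares were 27.8%, 33.5% and 6.66%. H2-Q4, a nonclassical heavy chain of the Qa region, had means of 8.50 in CHIR/XAV and 7.68 in FGF2/activin, against 5.76 in ESCs. Erap1, the peptidase that trims peptides in the endoplasmic reticulum, had means of 7.35 and 7.61 in the same cultures, against 4.95 in ESCs. Psme2, a subunit of the interferon-induced PA28 proteasome activator, was higher by 1.99 in CHIR/XAV and 2.00 in FGF2/activin. H2-T10 was 1.21 higher in CHIR/XAV than in FGF2/activin. Between the EpiSC cultures 8 of the 20 were higher in CHIR/XAV and 4 lower, or 6 and 5 after median centring. As deposited, 20.5% of all genes were called higher and 21.1% lower there. Cd1d1, a class I-like molecule that presents lipids, was the 1 that fell in CHIR/XAV over ESCs (-0.78), and it also fell in FGF2/activin (-0.77).

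The classical heavy chains H2-K1 and H2-D1 had no probe set that carried their symbol alone. Probe sets annotated to both, with 3 symbols each, numbered 2. They had means of 7.87 and 7.51 in CHIR/XAV EpiSCs and 7.32 and 6.75 in FGF2/activin EpiSCs, against 6.01 and 6.07 in ESCs, and were called higher in both EpiSC cultures than in ESCs in a fit over 35399 probe sets. Both were called higher in CHIR/XAV than in FGF2/activin, by 0.55 and 0.76, the direction of Tap2 and Psmb9 and not that of B2m. Which heavy chain they measured cannot be told apart, and strain alleles may bind the probes unequally, which was not tested. Other probe sets shared by several class I genes, but not annotated to both H2-K1 and H2-D1, varied. Over ESCs their log2 changes ran from 0.06 to 1.03 in CHIR/XAV and from -0.22 to 2.01 in FGF2/activin. In CHIR/XAV minus FGF2/activin they ran from -1.49 to 0.84. The probe set at -1.49 was called lower in CHIR/XAV (limma adjusted p = 3.36e-05).

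The partners of NLRC5 at class I promoters were mixed. Of 9 genes for the RFX, CREB/ATF and NF-Y factors and Ciita, 4 were higher and 2 lower in CHIR/XAV than in ESCs, and 4 higher and 4 lower in FGF2/activin (4 and 3 after median centring, 2 and 3 after quantile normalization). Beside this and the list counts over ESCs below stand the shares of all genes. Those called higher and lower were 24.7% and 22.1% in CHIR/XAV, and 27.8% and 33.5% in FGF2/activin. Rfxap, an RFX subunit, was higher by 0.65 in CHIR/XAV and 0.82 in FGF2/activin, and Atf1 was lower, by -0.74 and -0.45. Of 8 class II pathway genes, 4 were higher in CHIR/XAV and 3 in FGF2/activin, with none lower. Most were dim, with median levels of 5.23 in CHIR/XAV, 5.14 in FGF2/activin and 4.68 in ESCs. Only 1 was at least 2-fold higher in each culture. Cd74, the invariant chain of class II, was higher by 1.68 and 2.16 in CHIR/XAV and FGF2/activin.

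The interferon receptors and their signalling genes showed no common direction over ESCs. Of 18 measured, 2 were higher and 3 lower in CHIR/XAV, and 8 higher and 3 lower in FGF2/activin. Ifngr1, the ligand-binding chain of the interferon gamma receptor, was higher by 0.93 in CHIR/XAV and 1.49 in FGF2/activin, while Ifngr2, its signalling chain, was lower, by -1.78 and -1.13. Stat2 was lower by -1.30 and -1.48. Between the EpiSC cultures 0 of 18 were called higher in CHIR/XAV and 8 lower, beside 20.5% and 21.1% of all genes. The kinase gene Jak2 differed most, by -1.86. The interferon genes themselves were dim, with means of 4.93, 4.71 and 5.16 for Ifnb1 and 4.87, 4.66 and 4.86 for Ifng in CHIR/XAV, FGF2/activin and ESCs.

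Of 10 other genes of the IRF family and its binding partners, 4 were higher and 3 lower in CHIR/XAV than in ESCs, and 2 higher and 3 lower in FGF2/activin (3 and 2 after median centring). Irf3, which acts downstream of nucleic acid sensors, was higher by 0.69 and 1.18, and Irf9, the DNA-binding part of ISGF3, was lower, by -0.45 and -0.69, in CHIR/XAV and FGF2/activin.

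Interferon-stimulated genes outside the class I pathway split by gene. Of 40 measured, 21 were higher and 6 lower in CHIR/XAV than in ESCs (median 0.25), 12 of them at least 2-fold higher. In FGF2/activin 17 were higher and 14 lower (median 0.03), a split that median centring moved to 17 and 10 and quantile normalization to 19 and 10. There 11 of the 40 were at least 2-fold higher and 3 at least 2-fold lower. Of all genes, 5.03% were at least 2-fold higher in CHIR/XAV and 6.66% in FGF2/activin. Irgm1, an interferon-induced GTPase, was higher by 3.94 and 4.37 in CHIR/XAV and FGF2/activin, and Oasl2 by 3.54 and 2.33. Between the EpiSC cultures 23 of the 40 were higher in CHIR/XAV and 4 lower, beside 20.5% and 21.1% of all genes. Trim25, a ubiquitin ligase of the RIG-I pathway, had means of 8.27 in CHIR/XAV and 4.51 in FGF2/activin, against 8.73 in ESCs. Ifitm3, a membrane protein that restricts viral entry, was 2.48 higher in CHIR/XAV than in FGF2/activin, and Ddx58, the gene of RIG-I, 1.92 higher.

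Of 11 genes for NF-kappaB subunits and their regulators, 8 were higher and 2 lower than in ESCs in each EpiSC culture, with medians of 0.24 in CHIR/XAV and 0.56 in FGF2/activin. Between the EpiSC cultures 0 were called higher in CHIR/XAV and 6 lower, beside 20.5% and 21.1% of all genes. Rel, a subunit that activates transcription, was higher over ESCs by 0.71 in CHIR/XAV and 2.28 in FGF2/activin. Nfkbia, the gene of the inhibitor that holds NF-kappaB in the cytoplasm, was lower, by -1.45 and -0.79.

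Neighbours of the MHC genes on chromosome 17, outside antigen presentation, went both ways. Of 24 measured, 8 were higher and 5 lower in CHIR/XAV than in ESCs, and 9 higher and 7 lower in FGF2/activin, with medians of 0.04 and -0.04. Of all genes, 24.7% were called higher and 22.1% lower in CHIR/XAV, and 27.8% and 33.5% in FGF2/activin. For the neighbours, median centring gave 10 and 4 in FGF2/activin, and quantile normalization 7 and 8. No neighbour was at least 2-fold higher in either culture. The largest rise was that of Ppt2, a lysosomal thioesterase gene, at 0.96 and 0.85, and the largest fall that of Notch4, at -1.22 and -1.52.

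**Figure D4:**
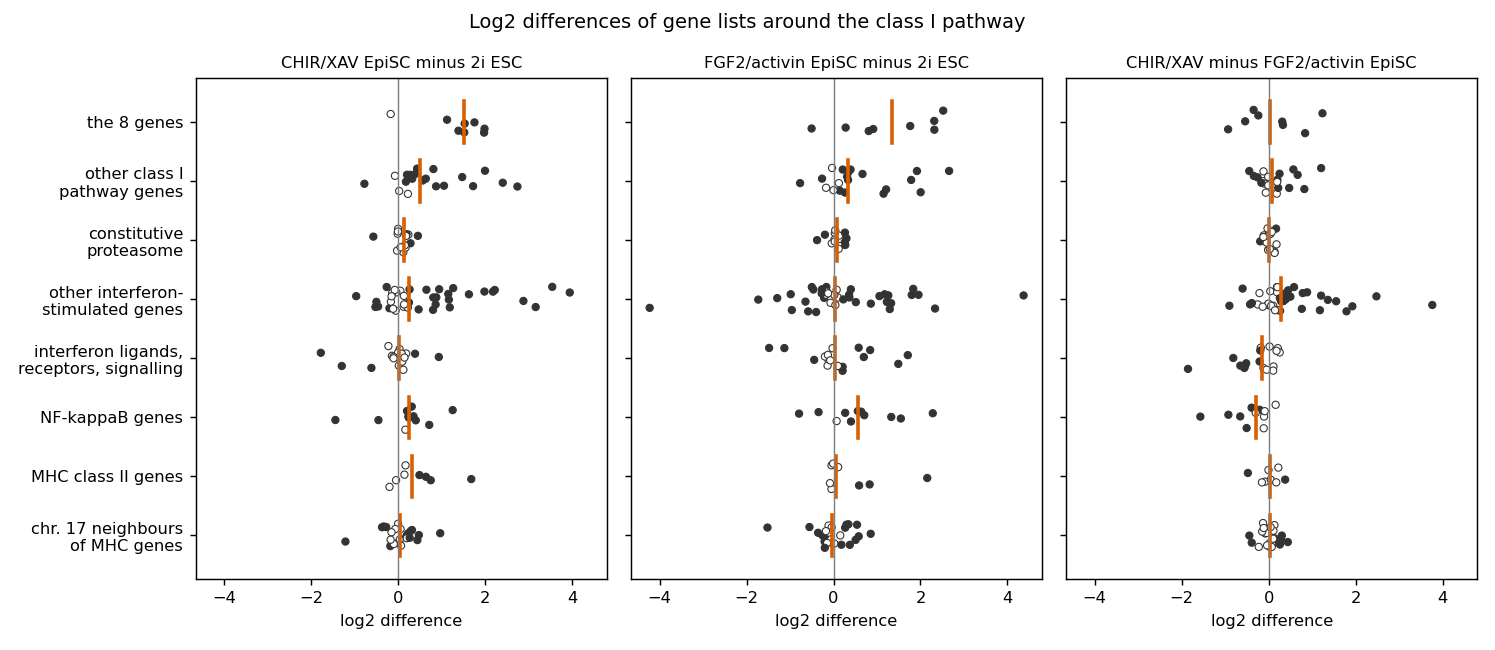
Log2 difference of every measured gene of 8 lists (filled points called, open points not) with each list's median (orange bar), in the 3 comparisons on the same horizontal scale. The 8 genes and the other class I pathway genes lie mostly to the right of 0 in the panels over ESCs, and the constitutive proteasome subunits lie close to 0.

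Markers of other cells that express MHC genes were read beside these changes. The summed level of 9 leukocyte markers was 46.9 to 47.5 in CHIR/XAV, 45.6 to 46.4 in FGF2/activin and 46.9 to 47.4 in ESCs, and 2 were higher and 1 lower in CHIR/XAV than in ESCs, and 1 higher and 3 lower in FGF2/activin (2 and 2 after quantile normalization). Ptprc, the pan-leukocyte marker CD45, had means of 5.01, 4.80 and 4.86. Of 11 fibroblast or feeder markers, 1 was higher and 1 lower in CHIR/XAV, and 5 higher and 2 lower in FGF2/activin. Their sum was 58.1 to 59.0 in CHIR/XAV and 57.3 to 57.8 in FGF2/activin, against 56.8 to 57.1 in ESCs, with Thy1 at means of 7.21 and 5.70 against 5.44. Of 5 endothelial markers, 1 was higher and 1 lower in CHIR/XAV, and 2 higher and 1 lower in FGF2/activin. The largest falls were -3.15 in CHIR/XAV and -3.36 in FGF2/activin, and the largest rises 0.51 and 0.64. The sum of the 5 was 25.7 to 25.9 and 25.8 to 26.1 in these cultures, against 28.0 to 28.5 in ESCs. Of 10 extraembryonic endoderm markers, 1 was higher and 2 lower in CHIR/XAV, and 2 higher and 6 lower in FGF2/activin, where median centring gave 2 and 4 and quantile normalization 2 and 2. Of 7 trophoblast markers, 4 were higher and 2 lower in CHIR/XAV, and 4 higher and 3 lower in FGF2/activin, with sums of 39.98 to 41.01 and 44.1 to 45.0, against 41.2 to 41.5 in ESCs. The part of such cells in the results was not tested.

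The genes whose profiles lay nearest to each of the 8 were found by the root mean square difference of centred log2 values over the 9 arrays, among 11330 genes above the dimmest 40%, leaving out predicted, clone, Rik, pseudogene and small RNA names. The nearest 2 were Vrtn and Nfasc for B2m (both at 0.08), St8sia4 and Slc9a7 for Tap1 (0.07 and 0.08), and Cers5 and Gpr37 for Tap2 (0.10 and 0.11). Faxc and Wls lay nearest to Tapbp (0.06 and 0.07), Serf1 and Gsto1 to Psmb8 (0.08 and 0.09), and Ndrg2 and Nrbp2 to Psmb9 (both at 0.09). Prlh and Gpihbp1 lay nearest to Nlrc5 (0.05 and 0.06), and Sema3e and Pea15a to Irf1 (0.06 and 0.08). None of these is on the class I or interferon lists, and the arrays fall into 3 clusters, so the measure mainly sets the group means side by side.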

How the data were processed

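Labelled total RNA of 9 samples was hybridised to single-colour arrays. The authors deposited 1 log2 level for each probe set on each array, obtained by RMA with Partek software according to the submitters' processing notes, which name no version. Array medians ran from 5.57 to 5.65. Arrays have no read depth, and 3 per group limit the precision. Of 35399 probe sets, 21789 carried 1 gene symbol in the platform annotation, 1621 several and 11989 none. The brightest single-symbol probe set stood for each of 19938 genes, of which 999 had several. Differences were fitted with limma 3.58.1 in R 4.3.3 over all 9 arrays, without covariates or filter. Benjamini-Hochberg adjustment ran over the 19938 genes, and an adjusted p under 0.05 was a call. The code was tested on simulated data.

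The 8 genes, the gene lists and the motifs were chosen with earlier results of these data known. Genes named from a list are among its 4 largest called changes in a comparison (3 for cell types), except Psmb5, Psmb6, Cd1d1, Ifnb1, Ifng and Ptprc, which were chosen after their values were seen. Promoter sequence came from a RefSeq table of build GRCm38.p6, and no source used here names the build of the array annotation. Alternatives were a mean over the probe sets of a gene, dropping the dimmest 40% of genes, a trended robust variance, fits to each pair of groups, median centring, quantile normalization, weights per array, a replicate block, omission of each array in turn, and limma's treat test against 1.5-fold. Fits of single probe sets, and of those shared by several class I genes, were added after the data were seen.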

Additional observations from a re-analysis of the deposited data

Results flagged for a closer look

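For each of the 8 genes the change over ESCs differed between the EpiSC cultures by the direct limma test, whose value is CHIR/XAV minus FGF2/activin on the log2 scale. The difference was positive, with the larger level in CHIR/XAV, for Psmb9 (1.24), Tap2 (0.84), Nlrc5 (0.33) and Psmb8 (0.31). It was negative for Tapbp (-0.93), Irf1 (-0.54), B2m (-0.35) and Tap1 (-0.24). Those of Tap1, Psmb8 and Nlrc5 lost their call when single arrays were left out, as given above.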

How the results depend on the processing

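The changes of the 8 genes kept their sign under every alternative run except single probe sets of Nlrc5. Over ESCs, 4 of its 19 were positive in CHIR/XAV and 3 of 19 in FGF2/activin. In CHIR/XAV minus FGF2/activin 7 of its 19 were negative, whereas the probe set used gave 0.33. Against a change of 1.5-fold (limma's treat test), the genes called numbered 2241 of 9320 in CHIR/XAV over ESCs, 2726 of 12218 in FGF2/activin over ESCs and 1175 of 8300 between the EpiSC cultures, and of the 8 genes 7, 5 and 2 were called. Between the EpiSC cultures 7 of the 8 were called with the mean of probe sets (Nlrc5 lost) and 7 after quantile normalization (Tap1 lost). Leaving out each array in turn gave 8438 to 9268, 10561 to 12416 and 6923 to 8418 genes called in the same order of comparisons, and 7 to 8, 8 and 6 to 8 of the 8 genes. Same-numbered arrays showed no clear common deviation (1 of 9 pairs had a correlation over 0.1, range -0.07 to 0.24). Pairs with different numbers ran from -0.23 to 0.18. With 3 arrays a group, this check cannot tell whether a number marks a shared batch. With the replicate block 9325, 12202 and 8246 genes were called, and 7, 8 and 8 of the 8. Detection calls were not used, so levels near the dim end, such as those of Psmb8 and Psmb9 in ESCs, may hold background, and their changes may then be understated.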
